A study of Homo sapiens with 6 samples.

Results

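The 9 genes described here are those of the xenobiotic receptors PXR (NR1I2) and CAR (NR1I3), their dimerisation partner RXRA, the cytochrome P450 (CYP) target genes CYP2B6, CYP3A4, CYP3A5, CYP3A7 and CYP2C8, and POR, the electron donor of these enzymes. They were chosen by gene symbol, and all 9 were found among the 19974 annotated genes of the count table. RNA-seq compared 3 samples each of Huh7 P, the untreated parental line from a human hepatocellular carcinoma, and of Huh7 LR. Huh7 LR was derived from Huh7 P by lenvatinib, a multikinase inhibitor, raised from 1 μM to 20 μM over about 10 months, and was kept in medium with 20 μM lenvatinib. Both lines carry the same wild-type label and were grown in the same medium with serum and antibiotics. Whether the drug was still present when RNA was collected was not given in the sources used here. Since there is 1 resistant line, exposure to the drug, selection and other differences between the lines cannot be told apart. Counts on genes totalled 62738937 to 71427573 per Huh7 P library (median 66961548) and 63233655 to 70768720 per Huh7 LR library (median 67284160). At these depths a count of 0 allows up to 3 counts, or 0.0420 to 0.0478 counts-per-million (CPM), a limit that covers counting error only.

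The label of a hepatocellular line was checked against 12 hepatocyte markers, and all 12 were above the filter on low counts. Their summed level was 46060, 51324 and 55371 CPM in the Huh7 P libraries and 59577, 59681 and 62223 CPM in the Huh7 LR libraries, and AFP, the foetal serum protein, was the most abundant in Huh7 P. Of these markers 6 were higher in Huh7 LR, 0 were lower and 6 did not differ. Among markers of other cells, DCN and THY1 of fibroblasts, HLA-DRA and TYROBP of leukocytes and CDH5 and KDR of endothelium had 0 counts in all 6 libraries. The summed leukocyte markers were nevertheless 67.6, 67.7 and 62.4 CPM in Huh7 P and 13.1, 14.0 and 10.1 CPM in Huh7 LR. LYZ, the lysozyme gene, made up most of that sum, and 1 of the 3 tested markers of this list was lower. The 7 fibroblast markers summed to 2.19, 2.16 and 2.28 CPM in Huh7 P and 8.02, 5.02 and 5.56 CPM in Huh7 LR. COL1A1 was the largest part in every library, and both tested ones were higher. The 4 endothelial markers summed to 38.8, 45.7 and 47.5 CPM against 70.7, 71.2 and 65.0 CPM, mostly from PECAM1, and both tested ones were higher, of which VWF passed the filter on low counts only through Huh7 LR. The 6 intestinal and bile duct markers summed to 953 to 1051 CPM across the libraries, with EPCAM the most abundant per length, 2 higher and 2 lower. KRT19, a bile duct keratin, changed by a log2 of -2.07 (adjusted p = 3.92e-07) and VIL1 by -0.25, while CDX2 changed by 0.57 and EPCAM by 0.30. The part of these markers in the results that follow was not tested. In bulk RNA, fewer cells expressing a gene and less of its RNA per cell cannot be told apart.

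PXR and CAR are nuclear receptors of the liver and intestine that sense drugs, bile acids and other foreign or endogenous compounds. CAR is held in the cytoplasm by a chaperone complex until it is released, and both receptors bind DNA as heterodimers with RXR at pairs of short hexamers arranged as direct or everted repeats. Their best known targets are CYP3A and CYP2 enzymes, which oxidise a large share of medicines, together with conjugating enzymes and efflux pumps.

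Promoter sequences are shown because 3 of the CYP targets lie side by side on chromosome 7 and moved together, while CYP2B6 moved the other way. Sequences of 300 bases, from 250 before to 50 after the transcription start, came from RefSeq on GRCh38.p14, which held 8 of the 9 members (POR was the missing entry). Searched on both strands were the hexamers AGGTCA and AGTTCA, and pairs of them as direct repeats with 3 bases between (DR3, as AGGTCANNNAGGTCA, AGGTCANNNAGTTCA, AGTTCANNNAGGTCA and AGTTCANNNAGTTCA) or 4 bases between (DR4, the same pairs around NNNN). Everted repeats with 6 bases between (ER6) were searched as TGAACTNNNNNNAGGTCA, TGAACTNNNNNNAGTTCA, TGACCTNNNNNNAGGTCA and TGACCTNNNNNNAGTTCA. Each whole repeat overlaps 2 hexamer matches by construction. These sequences run 5′ to 3′ on the gene's own strand, at chr7:99784135-99784434 (minus strand) for CYP3A4, chr7:99679947-99680246 (minus) for CYP3A5, chr7:99735147-99735446 (minus) for CYP3A7 and chr19:40991032-40991331 (plus) for CYP2B6, and capitals mark hexamer matches.
CYP3A4: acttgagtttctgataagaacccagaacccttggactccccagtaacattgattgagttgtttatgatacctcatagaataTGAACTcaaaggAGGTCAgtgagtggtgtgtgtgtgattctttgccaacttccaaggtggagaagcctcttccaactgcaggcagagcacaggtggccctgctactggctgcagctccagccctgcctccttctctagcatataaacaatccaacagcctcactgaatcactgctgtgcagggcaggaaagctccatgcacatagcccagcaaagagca
CYP3A5: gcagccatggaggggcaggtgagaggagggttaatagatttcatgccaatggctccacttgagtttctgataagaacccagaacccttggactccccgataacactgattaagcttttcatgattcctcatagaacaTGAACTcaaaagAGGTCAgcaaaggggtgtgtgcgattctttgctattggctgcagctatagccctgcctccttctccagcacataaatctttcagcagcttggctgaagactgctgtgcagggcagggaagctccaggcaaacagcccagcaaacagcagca
CYP3A7: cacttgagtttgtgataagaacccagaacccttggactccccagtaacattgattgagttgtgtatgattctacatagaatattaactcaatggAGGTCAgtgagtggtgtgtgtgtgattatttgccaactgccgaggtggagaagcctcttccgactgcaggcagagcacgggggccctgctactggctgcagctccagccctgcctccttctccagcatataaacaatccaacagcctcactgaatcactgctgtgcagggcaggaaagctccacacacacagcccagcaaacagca
CYP2B6: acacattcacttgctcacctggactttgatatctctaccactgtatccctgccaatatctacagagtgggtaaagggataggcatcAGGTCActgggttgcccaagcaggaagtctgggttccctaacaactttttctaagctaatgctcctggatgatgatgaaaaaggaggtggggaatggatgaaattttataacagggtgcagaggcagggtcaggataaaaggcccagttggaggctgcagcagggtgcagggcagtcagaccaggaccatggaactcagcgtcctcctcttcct

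An ER6 match lay at -169 to -152 in the CYP3A4 promoter and at -113 to -96 in the CYP3A5 promoter, counted from the transcription start. Of 35116 promoters of this length, 7 (0.0199%) held an ER6 match, 12 (0.0342%) a DR4 match and 5 (0.0142%) a DR3 match, whereas 7945 (22.6%) held at least 1 hexamer. CYP3A7 and CYP2B6 each had 1 hexamer and no whole repeat, as did NR1I2 in 1 of its 2 promoters. No letters searched were found in the promoters of CYP2C8, NR1I3 or RXRA. The 18 bases of each CYP3A promoter closest to the CYP3A4 match were then compared with it, counting from 1 at its 5′ end and giving the CYP3A4 base first. CYP3A5 differed by G11A, between the hexamers. CYP3A7 differed by G2T and A10T, of which the former lies in the first hexamer, and CYP3A43, the fourth gene of the cluster, by T1G, C5A and T16C. Over the whole 300 bases, the promoter of CYP3A4 was 93.7% identical to that of CYP3A7, 67.5% to that of CYP3A43 and 57.9% to that of CYP3A5. A match is a description of letters and not a binding site, and regulatory regions farther from the start were not analysed here.

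**Figure D1:**
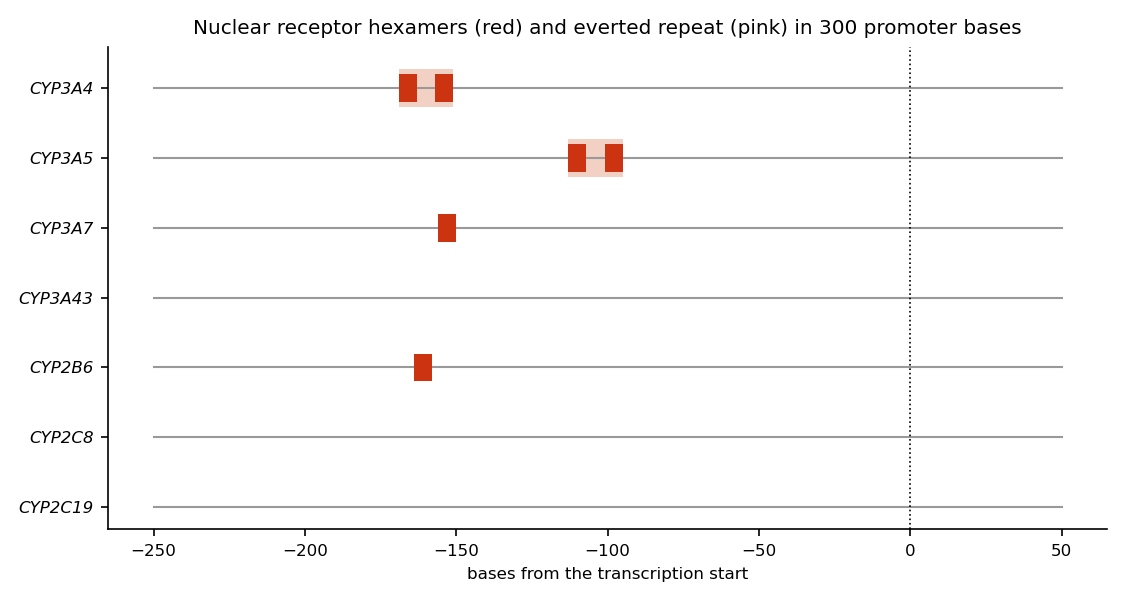
Positions of hexamer matches (red) and ER6 repeats (pink) in the 300 promoter bases of 7 CYP genes, with distance from the transcription start in bases on the horizontal axis. CYP3A4 and CYP3A5 carry the ER6 repeat at -169 to -152 and -113 to -96, CYP3A7 and CYP2B6 carry 1 hexamer, and CYP3A43, CYP2C8 and CYP2C19 carry none.

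The comparison asked how the receptors, their partner, their targets and the electron donor differed between Huh7 LR and Huh7 P. By edgeR's quasi-likelihood test over the 17531 genes and loci tested, 6 of the 9 members rose in Huh7 LR (adjusted p under 0.05) and 2 fell. Over all genes and loci tested, 23.3% were higher and 22.4% lower on this rule. CYP3A4, CYP3A5, CYP3A7 and CYP2C8 were also called higher, a term kept for changes above 2-fold whose adjusted p was under 0.001, as were 4.43% of all genes and loci. Called lower were 0 members and 1.78% of all genes and loci. RXRA and POR were higher by less than that, NR1I2 and CYP2B6 were lower, and NR1I3 did not pass. The libraries of the lines did not overlap for 8 of the 9, against 55.9% of all genes and loci tested. All 9 members passed the filter on low counts, CYP3A4 through its counts in Huh7 LR.

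**Figure D2:**
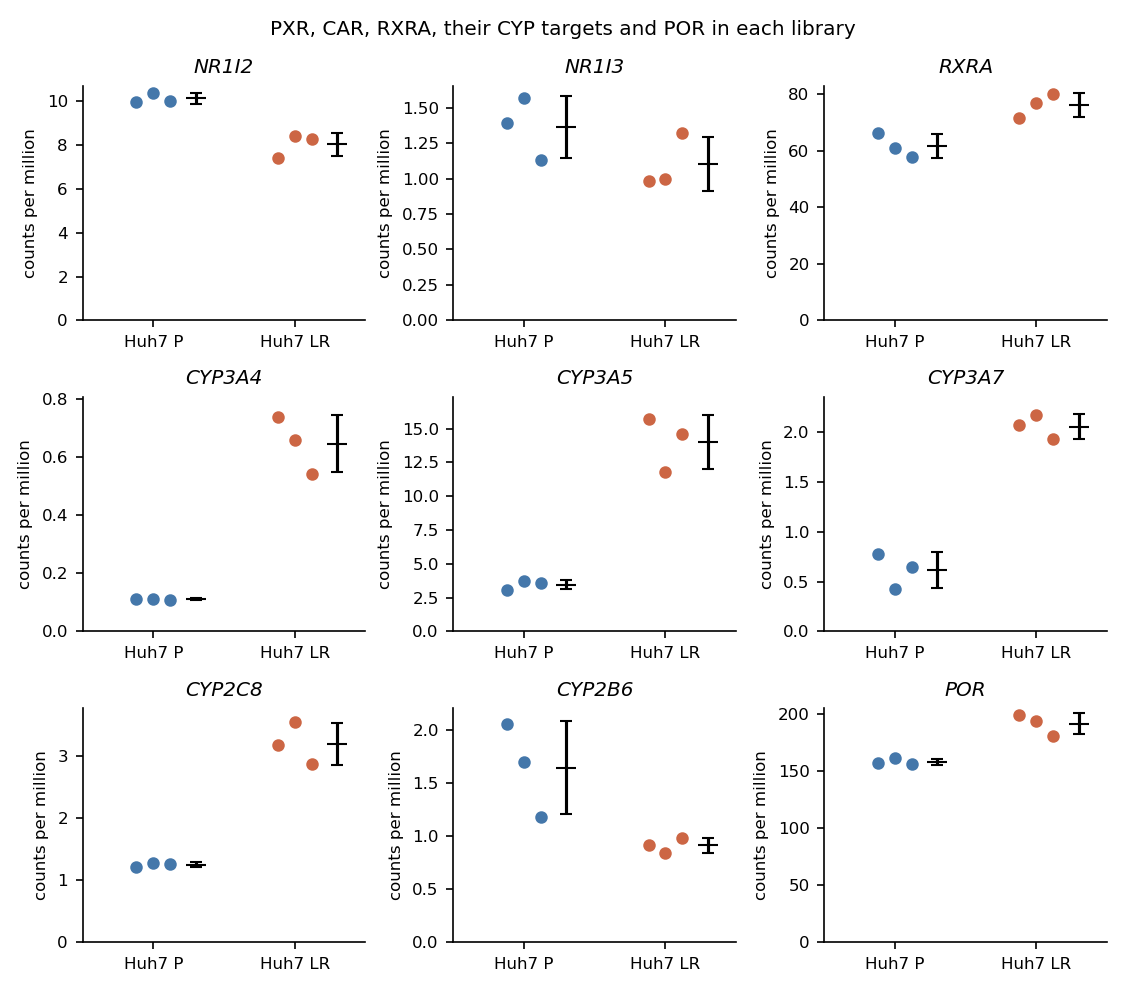
CPM of the 9 genes in each library (points, 3 per line), with the mean and SD beside them and every vertical axis starting at 0. The Huh7 LR libraries lie above all Huh7 P libraries for RXRA, CYP3A4, CYP3A5, CYP3A7, CYP2C8 and POR and below them for NR1I2 and CYP2B6, and the lines overlap for NR1I3.

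NR1I2 (ENSG00000144852, chr3:119780484-119818485, plus strand), the gene of PXR, stood at 9.99, 10.4 and 10.0 CPM in the Huh7 P libraries and at 7.41, 8.41 and 8.27 CPM in the Huh7 LR libraries. Every Huh7 LR library was below every Huh7 P library. The log2 fold change was -0.34 (SE 0.11, 95% interval -0.57 to -0.10, adjusted p = 0.0230, n = 3 per line by edgeR). NR1I2 did not pass 0.05 without Huh7 P replicate 2 (-0.32, adjusted p = 0.0796), Huh7 P replicate 3 (-0.34, 0.0556) or Huh7 LR replicate 1 (-0.28, 0.0612), or on FPKM values with log2 changes of -0.26 and -0.18 (adjusted p = 0.0823 and 0.0755), while the direction stayed negative over its 14 alternatives.

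NR1I3 (ENSG00000143257, chr1:161229666-161238302, minus strand), the gene of CAR, had 1.39, 1.57 and 1.13 CPM in Huh7 P and 0.982, 0.999 and 1.32 CPM in Huh7 LR. The third Huh7 LR library lay within the range of Huh7 P, so the lines overlapped. The log2 fold change of -0.31 (SE 0.23, 95% interval -0.82 to 0.20) did not pass the test (adjusted p = 0.303 by edgeR). Its deposited FPKM, fragments per kilobase of transcript scaled to library size, read 0.894, 0.986 and 0.702 across Huh7 P, then 0.631, 0.968 and 1.30 across Huh7 LR, so that the means of 0.861 ± 0.145 and 0.965 ± 0.333 (SD, n = 3) ran the other way. The transcript length implied by each library's count and FPKM was 1566, 1568 and 1575 bases in Huh7 P and 1605, 1022 and 1032 bases in Huh7 LR. Replicates 2 and 3 of Huh7 LR were thus the ones whose FPKM was high for their count. Exons of NR1I3 share 661 of 3305 bases (20.0%) with TOMM40L, an import receptor gene of mitochondria on the opposite strand. TOMM40L took 2701, 2498 and 2518 counts in Huh7 P, compared with 1400, 2018 and 1771 in Huh7 LR (log2 fold change -0.61, SE 0.10, adjusted p = 0.000616 by edgeR). Whether counting used strand was not given in the sources used here, so reads of the shared bases cannot be told apart between both genes.

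RXRA (ENSG00000186350, chr9:134317098-134440585, plus strand), which pairs with both receptors, was present at 66.4, 60.9 and 57.8 CPM in Huh7 P and 71.8, 77.0 and 80.3 CPM in Huh7 LR. All Huh7 LR libraries were above those of Huh7 P, by a log2 fold change of 0.31 (SE 0.08, adjusted p = 0.00669 by edgeR). RXRB, a second partner, was higher by 0.34 (SE 0.09, adjusted p = 0.00796), from 31.0 ± 0.750 to 39.4 ± 4.25 CPM (SD, n = 3). RXRG had 0 counts in all libraries. Of the 4 tested genes of this list, 2 were higher, 1 was lower and 1 did not differ, with a median log2 fold change of 0.00, which is also the median over all genes and loci tested.

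Genes that act with the receptors were taken as lists. Their counts, and those of the lists below, stand beside 23.3% higher and 22.4% lower over all genes and loci tested. Of 8 coregulators, NCOR1, a corepressor, was lower (log2 fold change -0.22, adjusted p = 0.0176) and 7 did not pass, among them NR0B2, the repressor SHP, at -0.68 (adjusted p = 0.0523) and PPARGC1A at 1.02 (adjusted p = 0.0931), the latter on 8 to 25 counts per library. The list's median was -0.08. The 4 genes of the cytoplasmic complex that retains CAR had a median of -0.30, and 3 were lower. These were DNAJC7 (CCRP), which binds CAR, at -0.34 (adjusted p = 0.00340), and the chaperones HSP90AA1 at -0.58 (0.000114) and HSP90AB1 at -0.26 (0.0138).

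Transcription factors of hepatocytes that share promoters and enhancers with these receptors were counted next. Of 12, 6 rose, 2 fell and 4 did not differ, with a median log2 fold change of 0.25. Among all genes and loci tested 23.3% were higher and 22.4% lower. The C/EBP factors CEBPD and CEBPA rose by 0.98 and 0.58 (adjusted p = 3.2e-05 and 5.55e-05), and NR3C1, the glucocorticoid receptor, by 0.46 (adjusted p = 0.00401). ONECUT1 was higher by 0.41, FOXA2 by 0.31 and NR5A2 by 0.24. PROX1, a corepressor, changed by -0.33 and FOXA3 by -0.20. HNF4A, a central regulator of CYP expression, had 325 ± 19.7 CPM in Huh7 P and 312 ± 32.8 CPM in Huh7 LR (SD, n = 3) and did not differ (adjusted p = 0.608 by edgeR). Its means on the deposited FPKM, 61.5 in Huh7 P and 83.0 in Huh7 LR, ran the other way, with the lines overlapping.

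CYP3A4 (ENSG00000160868, chr7:99756960-99784265, minus strand), the main drug-oxidising P450 of adult liver and intestine, was represented by 8, 7 and 7 reads in Huh7 P, compared with 48, 46 and 37 reads in Huh7 LR. Scaled to library size, this was 0.111, 0.113 and 0.107 CPM against 0.736, 0.657 and 0.542 CPM. Each Huh7 LR library held several times more than any Huh7 P library, although the counts were low in both lines. The log2 fold change was 2.52 (SE 0.39, 95% interval 1.67 to 3.37, adjusted p = 0.000342 by edgeR), or 5.75-fold. The transcript length implied by count and FPKM was 3197, 2685 and 2657 bases in Huh7 P and 2474 to 2516 bases in Huh7 LR. Leaving out any 1 of the 6 libraries kept the difference, at adjusted p between 0.00163 and 0.0026, but not the stricter call.

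CYP3A5 (ENSG00000106258, chr7:99648194-99680026, minus strand), a paralog with overlapping substrates, had 3.09, 3.70 and 3.58 CPM in Huh7 P and 15.7, 11.8 and 14.6 CPM in Huh7 LR. The lines were far apart relative to the spread within them, with Huh7 LR replicate 2 the lowest of its line. Its log2 fold change of 2.02 (SE 0.14, 95% interval 1.71 to 2.33, adjusted p = 1.67e-06 by edgeR) corresponded to 4.07-fold, and this gene supplied most CYP3A reads in every library.

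CYP3A7 (ENSG00000160870, chr7:99684957-99735196, minus strand), the CYP3A form of foetal liver, had 0.780, 0.421 and 0.642 CPM in Huh7 P and 2.07, 2.17 and 1.93 CPM in Huh7 LR. Huh7 P varied more than Huh7 LR, its second library having 26 counts where the others had 56 and 42, and the lines did not overlap. It changed by a log2 of 1.73 (SE 0.25, 95% interval 1.18 to 2.28, adjusted p = 0.000225 by edgeR). Without Huh7 P replicate 3 or Huh7 LR replicate 3 the adjusted p was 0.0017 and 0.00116, above the level of the stricter call. CYP3A7 shares 1507 of 3810 exon bases (39.6%) with the read-through gene CYP3A7-CYP3A51P on the same strand, which had 0 counts in each Huh7 P library and 9, 3 and 6 in Huh7 LR. Summing the genes that share exons gave 1.80 (SE 0.25).

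Reads of paralogs could have been split among them by the authors' counting. Among all stretches of 50 bases in the annotated transcripts of each gene, 7.99% of those of CYP3A4 occur also in CYP3A5, CYP3A7 or CYP3A43, while 4.66% of those of CYP3A7 and 1.04% of those of CYP3A5 occur in CYP3A4. For stretches of 100 bases the shares were 0.494%, 0.0810% and 0.170%. The 3 members were therefore also taken as a sum.

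The sum of CYP3A4, CYP3A5 and CYP3A7 was 3.99, 4.23 and 4.33 CPM in Huh7 P and 18.5, 14.6 and 17.1 CPM in Huh7 LR. Means were 4.18 ± 0.177 and 16.8 ± 2.01 CPM (SD, n = 3), a ratio of 4.01 and a log2 ratio of 2.0, with no overlap of the lines. On the deposited FPKM the sum went from 1.49 ± 0.0287 to 6.29 ± 0.758, a log2 ratio of 2.08. Of the summed counts, CYP3A5 made up 82.6% ± 4.87 in Huh7 P, then 83.7% ± 2.66 in Huh7 LR (SD, n = 3), CYP3A7 14.8% ± 4.81 and 12.4% ± 2.10, and CYP3A4 2.65% ± 0.164 and 3.88% ± 0.671. Per length, as shares of summed FPKM, CYP3A5 made up 77.9% ± 6.11 and 80.0% ± 3.06. By library, the CYP3A4 share of counts was 2.80%, 2.68% and 2.47% for Huh7 P, compared with 3.97%, 4.50% and 3.17% for Huh7 LR. Those shares did not overlap between the lines, while the shares of CYP3A5 and CYP3A7 did. The CYP3A4 shares in Huh7 P rest on 8, 7 and 7 reads, however, and their SD leaves out counting error. Whether the share of CYP3A4 changed was not tested. With CYP3A43, the remaining gene of the cluster, the sum gave 4.23 ± 0.111 and 17.4 ± 2.11 CPM and a log2 ratio of 2.04.

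**Figure D3:**
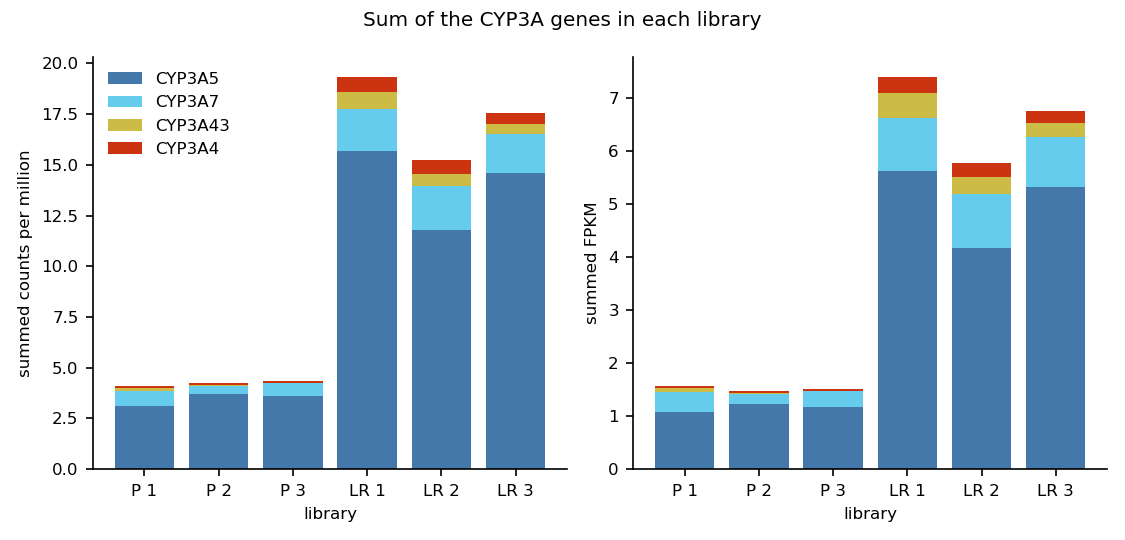
Summed level of the 4 CYP3A genes in each library (P 1 to P 3, LR 1 to LR 3), in CPM on the left and in FPKM on the right, with colours for the genes. The sum with CYP3A43 rises from a mean of 4.23 CPM in Huh7 P to 17.4 CPM in Huh7 LR, and CYP3A5 forms the largest share in all 6 libraries.

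CYP2C8 (ENSG00000138115, chr10:95036772-95069497, minus strand), which oxidises paclitaxel and arachidonic acid, had 1.21, 1.28 and 1.27 CPM in Huh7 P and 3.18, 3.54 and 2.87 CPM in Huh7 LR. All 3 Huh7 LR libraries were well above every Huh7 P library, which lay close together. CYP2C8 rose by a log2 fold change of 1.35 (SE 0.17, 95% interval 0.97 to 1.73, adjusted p = 9.5e-05 by edgeR). Of its paralogs in the same cluster, CYP2C19 changed by 1.37 (SE 0.15, adjusted p = 3.99e-05) and CYP2C18 by 0.76 (SE 0.24, adjusted p = 0.0207). CYP2C18 and CYP2C19 share exon bases with a read-through locus, AL583836.1, that had 122 counts in Huh7 P replicate 1 and 0 in the other libraries.

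CYP2B6 (ENSG00000197408, chr19:40991250-41018398, plus strand), the classical CAR target and an enzyme of bupropion and efavirenz metabolism, took 147, 105 and 77 counts in Huh7 P, compared with 60, 59 and 67 in Huh7 LR. In CPM the libraries stood at 2.05, 1.70 and 1.18 against 0.921, 0.842 and 0.982. Huh7 P was widely spread, and in CPM its lowest library was above the highest of Huh7 LR. On the deposited FPKM, at 0.618, 0.698 and 0.344 across Huh7 P, then 0.290, 0.263 and 0.417 across Huh7 LR, the lines overlapped. The log2 fold change was -0.84 (SE 0.25, 95% interval -1.39 to -0.30, adjusted p = 0.0163 by edgeR), or 1.80-fold lower. Without Huh7 P replicate 1, the highest library, it was -0.65 and did not pass (adjusted p = 0.0815). The implied transcript length was 2397 bases in Huh7 P replicate 2 and 2388 bases in Huh7 LR replicate 3, and 3166 to 3343 bases in the other libraries. Transcripts of CYP2B6 share 7.74% of their 50-base stretches with the pseudogene CYP2B7P.

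Of 9 CYP2A, CYP2B, CYP2C and CYP3A targets, 7 were higher, CYP2B6 alone was lower, and CYP2A6, the nicotine oxidase, did not pass (log2 fold change 0.59, adjusted p = 0.101). CYP2C18, with the limit given above, is among these 7. The median log2 fold change of the list was 1.37, beside 0.00 over all genes and loci tested. CYP3A43 took 9, 2 and 0 counts in Huh7 P, compared with 55, 42 and 34 in Huh7 LR, and its log2 fold change of 3.52 (SE 0.68, adjusted p = 0.00163) rests on these few counts, which passed the filter only through Huh7 LR.

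**Figure D4:**
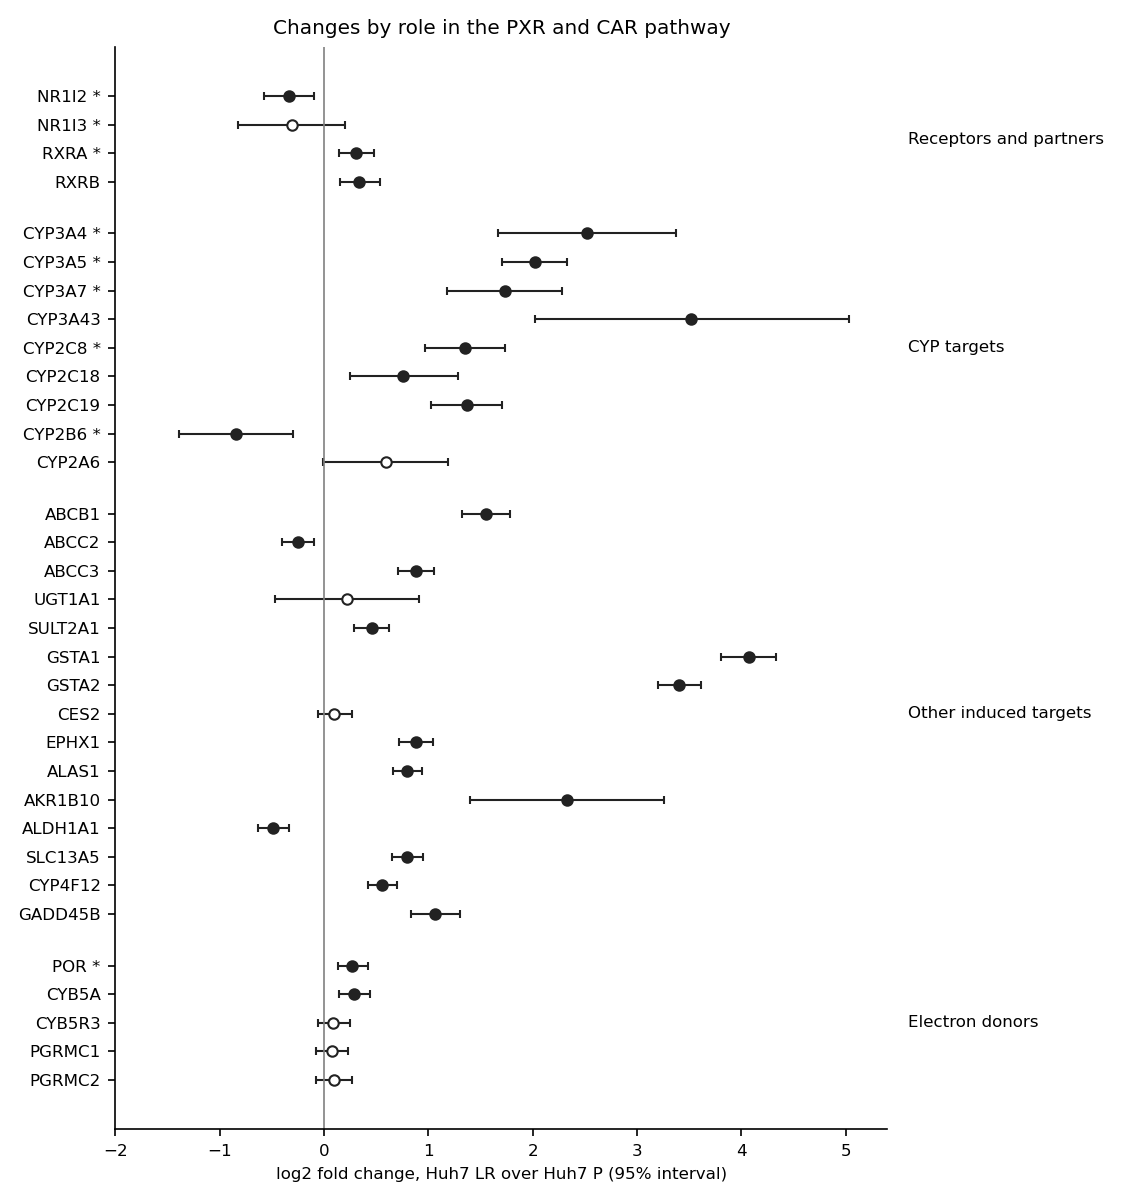
Log2 fold change of Huh7 LR over Huh7 P with its 95% interval for genes grouped by role in the PXR and CAR pathway, with filled points at an adjusted p under 0.05 and asterisks on the 9 members described. Points of the CYP targets lie right of 0 except that of CYP2B6 at -0.84. Receptors, partners and the genes grouped as electron donors lie between -0.34 and 0.34.

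Other genes known to be induced through PXR or CAR numbered 18, of which 15 were tested. In Huh7 LR 11 rose, 2 fell and 2 did not differ, with a median log2 fold change of 0.80. Among all genes and loci tested 23.3% were higher and 22.4% lower. The summed level of the list went down, from 5552, 5832 and 5871 CPM in Huh7 P to 4840, 5081 and 4998 CPM in Huh7 LR. ALDH1A1 supplied most of that sum in every library. GSTA1 and GSTA2, which conjugate glutathione, changed by 4.07 (SE 0.12) and 3.40 (SE 0.09), and they are close paralogs between which reads could have been split. ABCB1, the efflux pump MDR1, went from 62.6 ± 3.59 to 183 ± 26.6 CPM (SD, n = 3), which is 1.55 on the log2 scale (SE 0.10, adjusted p = 1.36e-06 by edgeR). ALAS1, the first enzyme of haem synthesis and so of the P450 prosthetic group, rose by 0.80 (SE 0.06, adjusted p = 4.01e-06). EPHX1, an epoxide hydrolase, and ABCC3, a basolateral pump, were both higher by 0.88, and the citrate transporter SLC13A5 by 0.80. GADD45B was higher by 1.06, CYP4F12 by 0.56 and SULT2A1, a sulfotransferase, by 0.46. AKR1B10 changed by 2.33 from 0.221 CPM. It passed the filter on low counts only through Huh7 LR, since Huh7 P replicate 2 held 9 reads, below the minimum of 10. The canalicular pump ABCC2 changed by -0.25 and ALDH1A1 by -0.49, and UGT1A1 and the carboxylesterase CES2 did not pass. Values of all 41 genes of these lists that passed kept their direction in every alternative that gave them a value. Summed paralogs and overlapping genes were not counted among these alternatives. Fewer of the 41 genes still passed 0.05, namely 35 to 40 without a library and 32 of the 35 with a value on FPKM.

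Targets known to be repressed by the receptors numbered 5, with 4 tested, of which 3 were higher and 0 were lower. CPT1A, which admits fatty acids to mitochondria, rose by 0.71 (SE 0.09, adjusted p = 7.29e-05). G6PC and CYP8B1, the other genes higher, passed the filter only through their counts in Huh7 LR, with 0, 9 and 0 against 90, 35 and 68 counts for G6PC and 4, 6 and 2 against 20, 14 and 19 for CYP8B1. PCK1 did not pass, and CYP7A1, of bile acid synthesis, was below the filter.

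POR (ENSG00000127948, chr7:75899200-75986855, plus strand), the reductase that passes electrons from NADPH to all microsomal P450 enzymes, had 157, 161 and 156 CPM in Huh7 P and 199, 194 and 181 CPM in Huh7 LR. The lines did not overlap and both were tight. POR rose by a log2 fold change of 0.27 (SE 0.07, 95% interval 0.13 to 0.42, adjusted p = 0.00639 by edgeR), or 1.21-fold. CYB5A, the cytochrome b5 that also donates electrons, was higher by 0.29 (SE 0.07, adjusted p = 0.00440). CYB5R3, PGRMC1 and PGRMC2 did not pass, so 2 of the 5 genes grouped as electron donors were higher, with a median of 0.10. That heading is loose for PGRMC1 and PGRMC2, which are not reductases.

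The 9 members were ranked per length, on the deposited FPKM. In Huh7 P the order was POR (62.0 ± 3.33), RXRA (30.7 ± 2.47), NR1I2 (2.15 ± 0.0409), CYP3A5 (1.16 ± 0.0807), NR1I3, CYP2C8 (0.591 ± 0.00486), CYP2B6 (0.553 ± 0.186), CYP3A7 (0.291 ± 0.0966) and CYP3A4 (0.0386 ± 0.00332). CYP2B6 overlapped both CYP2C8 above it and CYP3A7 below it. In Huh7 LR it was POR (73.7 ± 4.35), RXRA (38.7 ± 1.95), CYP3A5 (5.04 ± 0.773), NR1I2 (1.79 ± 0.117), CYP2C8 (1.56 ± 0.176), CYP3A7 (0.983 ± 0.0445), NR1I3, CYP2B6 (0.324 ± 0.0821) and CYP3A4 (0.262 ± 0.0412). There NR1I2 overlapped CYP2C8, CYP3A7 overlapped NR1I3, and CYP2B6 overlapped CYP3A4. CYP3A5 thus stood below NR1I2 in Huh7 P and above it in Huh7 LR, in every library, and CYP3A4 was the lowest member by mean in both lines. With counts per kilobase of annotated exon in place of FPKM, all 9 ranks were the same in Huh7 LR and 6 of 9 in Huh7 P, where NR1I3 moved below CYP2C8 and CYP2B6.

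Genes beside the clusters were examined for a shared change of the region. Within 500000 bases of the CYP3A genes 36 other genes were tested, of which 7 rose, 6 fell and 23 did not differ, with a median log2 fold change of 0.05. The nearest tested genes on either side, ZSCAN25 and TRIM4, changed by 0.31 and 0.21 (adjusted p = 0.0137 and 0.0350), against 1.73 to 2.52 for CYP3A4, CYP3A5 and CYP3A7 and 3.52 for CYP3A43 on its few counts. GAL3ST4 changed by 2.56 (adjusted p = 0.00432) from 0.0772 CPM, the largest change of the 36, but it passed the filter only through its Huh7 LR counts. Beside the CYP2C genes 6 others were tested, of which PDLIM1 was higher (0.55, adjusted p = 0.000766), NOC3L and HELLS were lower (-0.68 and -0.74), and 3 did not differ. CYP2C8, CYP2C18 and CYP2C19 ranged from 0.76 to 1.37.

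**Figure D5:**
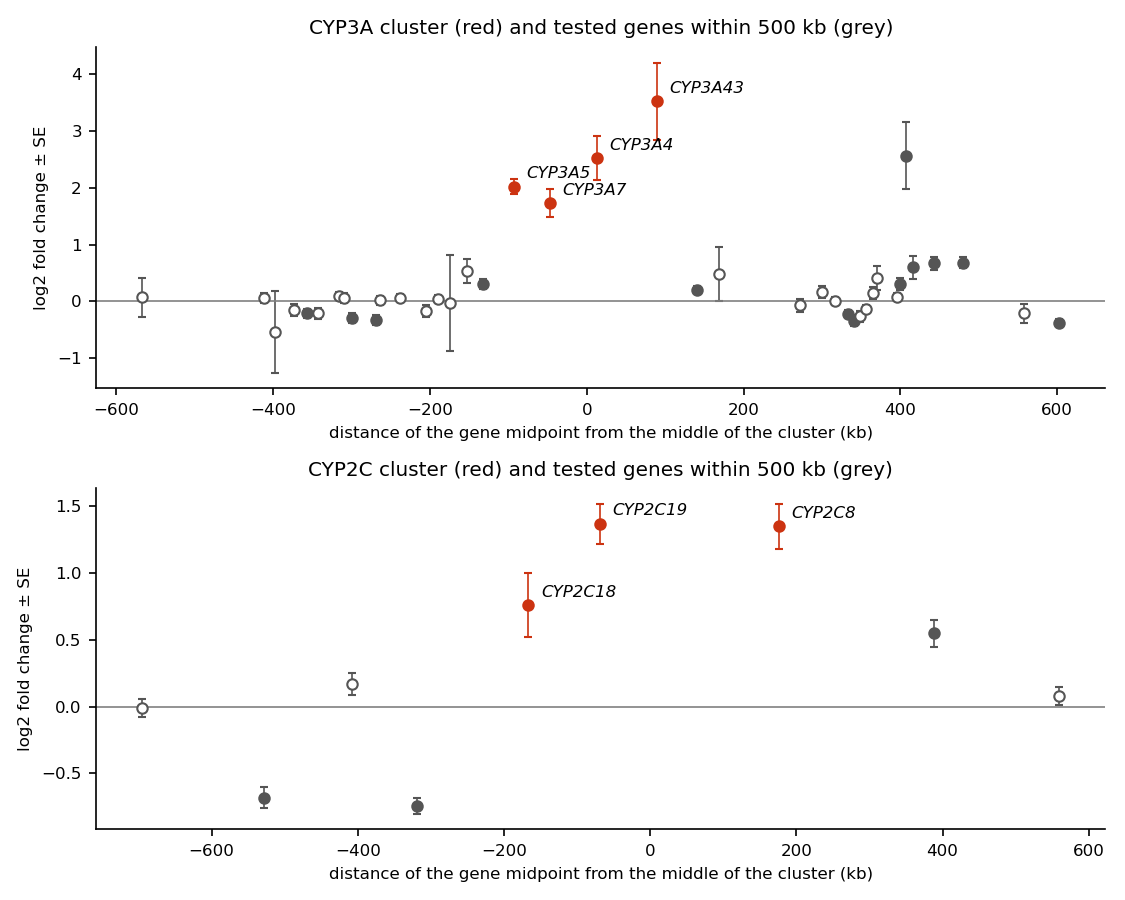
Log2 fold change of Huh7 LR over Huh7 P, with its SE, against the distance of each gene's midpoint from the middle of the CYP3A cluster (top) or CYP2C cluster (bottom) in kilobases, with filled points at an adjusted p under 0.05. The CYP genes shown for each cluster (red) lie above 0, and the medians of their tested neighbours (grey) were 0.05 and 0.04.

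The genes whose profile was most like that of CYP3A4 were sought among 13808 other annotated genes tested that had a count in every library, by the root mean square difference in log2 CPM centred on each gene's mean over the 6 libraries. These were SYT7 (0.154), AGPAT4 (0.157), TMPRSS9 (0.176), NCALD (0.177) and WAS (0.182). Their log2 fold changes lay between 2.25 and 2.53, and SYT7 was at 11.2 CPM in Huh7 P and 64.7 CPM in Huh7 LR.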

How the data were processed

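Poly(A) RNA libraries of 3 Huh7 P and 3 Huh7 LR samples were analysed. The table deposited by the authors gives each gene a raw read count and an FPKM per library, and the authors scaled FPKM for the length of the transcript and the size of the library. The submitters' processing notes name TopHat2, Cufflinks, DESeq and the mouse build mm10, whereas the identifiers are those of human genes, and positions are those of GENCODE release 29 on GRCh38. The extraction label names an insect. Strandedness was not given in the sources used here. A further 34 lines named no gene and were left out, and 6210 unannotated loci, with 2.86% to 3.35% of counts, were kept.

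Counts were fitted with edgeR 4.0.16 in R 4.3.3, using TMM factors between 0.977 and 1.03, filterByExpr (minimum count 10, minimum total 15), the quasi-likelihood test and Benjamini-Hochberg adjustment over 17531 genes and loci. A difference needed an adjusted p under 0.05, and a call one under 0.001 with an absolute log2 fold change above 1. Standard errors were the log2 fold change divided by the root of the F statistic. The methods call the 3 samples per line independent, and the p-values measure the spread between these samples of 1 line each. Alternatives were DESeq2 1.42.0 (size factors and Wald test), other count filters, a replicate block, limma-trend 3.58.1 on FPKM (offsets 0.1 and 1 before log2, genes of 0.5 FPKM or more in 3 or more libraries), each library left out in turn, and summed paralogs or overlapping genes. The fits were tested on simulated data.

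Named genes are the 9 members, genes of the lists that passed or stand for their range, markers, genes sharing exons with a member, cluster neighbours and the 5 genes most like CYP3A4. ZSCAN25, TRIM4, GAL3ST4, PDLIM1, NOC3L, HELLS and the genes with an ER6 match were chosen after their values were seen. Some genes of these families and pathways are not reported here, and the list counts leave them out. The members and lists were chosen with earlier results of these data known. Promoters were compared by global alignment in Biopython 1.88, and figures were drawn with matplotlib 3.10.9.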

Additional observations from a re-analysis of the deposited data

How the results depend on the processing

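RXRA, CYP3A4, CYP3A5, CYP3A7, CYP2C8 and POR kept their direction and an adjusted p under 0.05 in every alternative that gave them a value. CYP3A4 and CYP2B6 were below the FPKM filter of the limma fits, and CYP3A4 was also below a minimum of 10 counts in every library. CYP3A7 passed that FPKM filter only through its Huh7 LR libraries, at 0.935 to 1.02 FPKM against 0.19 to 0.383 in Huh7 P. NR1I3 changed sign on FPKM, to 0.11 with log2(FPKM + 0.1) and 0.07 with log2(FPKM + 1) (adjusted p = 0.729 and 0.679 by limma), and the transcript length implied by its counts differed among the Huh7 LR libraries. NR1I2 did not pass on FPKM, at -0.26 and -0.18 on these scales, and the cause was not tested. Without each library in turn its log2 fold change lay between -0.36 and -0.28, and that of CYP2B6 between -1.04 and -0.65, with fewer samples in each fit. The number of members lower was 0 on both FPKM scales, where CYP2B6 was not tested, and 1 to 2 without a library. Members called higher numbered 1 with log2(FPKM + 1), where CYP3A5 stayed called at 1.48 while CYP2C8 and CYP3A7 fell to 0.68 and 0.62, and 2 to 3 without a library. With log2(FPKM + 0.1) CYP2C8 and CYP3A7 were at 1.26 and 1.5 and stayed called. By arithmetic, the larger offset shrinks the log2 changes of genes near or below 1 FPKM. Genes called higher and lower in the whole table numbered 268 and 84 with log2(FPKM + 1) and 589 and 212 with log2(FPKM + 0.1), both by limma over 13746 genes and loci, and 776 and 312 by edgeR over 17531.

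The CYP3A sum of 3 genes had a log2 ratio of 1.92 to 2.09 without a library, and 2.0 with DESeq2's size factors. With the stricter call in place of an adjusted p under 0.05, the higher and lower genes numbered 5 and 0 among the CYP2A, CYP2B, CYP2C and CYP3A targets, 4 and 0 among other induced targets, and 4 and 1 among other P450 genes. They numbered 0 and 0 among receptors, coregulators, the CAR complex, liver factors, repressed targets and the genes grouped as electron donors.

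The sources used here give no pairing of samples by replicate number, so the main fit did not pair them. Correlations of same-numbered deviations were 0.058, 0.093 and 0.073, and 6 of 6 libraries correlated best with their own number. This is a hint from the data and not the design, and values this small cannot decide whether the samples were paired. With the replicate block, 4089 genes were higher and 4033 lower, members again numbered 6 higher, 2 lower and 4 called higher, and CYP2B6 was at -0.81 (adjusted p = 0.0226). Depth limits CYP3A4, CYP3A43, G6PC, CYP8B1, CYP1A2, VWF and GAL3ST4, whose Huh7 P libraries held 0 to 9 counts.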

Other observations

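Of 23 tested cytochrome P450 genes outside the lists, 8 were higher, 4 lower and 11 not different in Huh7 LR, with a median log2 fold change of 0.22, beside 23.3% higher and 22.4% lower among all genes and loci tested. CYP1A2, one of the 8, took 5, 8 and 0 counts in Huh7 P, compared with 24, 21 and 14 in Huh7 LR, and passed the filter on low counts only through Huh7 LR. CYP1A1, the classical target of the aryl hydrocarbon receptor, had 23.8, 24.9 and 23.5 CPM in Huh7 P and 98.6, 171 and 139 CPM in Huh7 LR (log2 fold change 2.50, SE 0.16, adjusted p = 1.13e-06 by edgeR). CYP2U1 and CYP2A7 were higher by 2.33 and 2.19, from means of 0.439 and 0.216 CPM, and CYP4F3, a fatty acid hydroxylase, by 1.16. CYP51A1, of cholesterol synthesis, rose by 0.53. In the other direction, CYP26B1, which clears retinoic acid, went from 23.0 ± 1.57 to 3.95 ± 0.331 CPM (SD, n = 3), or -2.54 on the log2 scale (SE 0.11, adjusted p = 7.27e-08 by edgeR). CYP2S1 changed by -1.0, CYP27B1 by -0.81 and CYP2J2 by -0.60. CYP2E1 and CYP2D6 did not pass, at -0.01 and 0.11.

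HNF4A showed the same split between its count and FPKM values as NR1I3. Its FPKM means were 61.5 in Huh7 P and 83.0 in Huh7 LR while its counts did not differ. The implied transcript length was 5334, 5054 and 5320 bases in Huh7 P and 5541, 3240 and 3462 bases in Huh7 LR, so the low values fell in replicates 2 and 3 of Huh7 LR for both genes. The highest implied length over the lowest was 1.71 for HNF4A, 1.57 for NR1I3, 1.40 for CYP2B6, 1.29 for CYP3A4, 1.12 for POR and 1.01 to 1.07 for the other genes examined.

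Among the 7 promoters with an ER6 match, 4 belonged to genes of the table. CYP3A4 and CYP3A5 were higher, and ECSIT (log2 fold change -0.40, SE 0.08, adjusted p = 0.00224 by edgeR) and ITGB1BP2 (-1.31, SE 0.43, adjusted p = 0.0273) were lower in Huh7 LR. ITGB1BP2 was low in both lines, at means of 0.442 CPM in Huh7 P and 0.177 CPM in Huh7 LR. Of the 9 CYP2A, CYP2B, CYP2C and CYP3A targets, 8 had a promoter in the sequence table and 4 of these held a hexamer. These were CYP2B6 and the neighbouring paralogs CYP3A4, CYP3A5 and CYP3A7. The promoters of CYP3A4 and CYP3A7 were 93.7% identical, so these 4 are not independent. The 15 other induced targets with a promoter had 19 promoters, of which 6 held a hexamer, and the 1 promoter of the repressed targets held 0, beside 22.6% of all promoters.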
